A study of Mus musculus with 7 samples.

Results

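The tetraspanins Cd9, Cd81, Cd82, Cd63, Cd151, Tspan2 and Tspan15, their immunoglobulin-superfamily partners Igsf8 and Ptgfrn, and the pentaspan membrane protein gene Prom1 were followed in the optic nerve of mice whose oligodendrocyte (OL) lineage lacks fatty acid synthase. The members were chosen by gene name, and all 10 were found among the 22880 genes of the deposited table. Optic nerves were taken at P14 (postnatal day 14) from 4 control mice, which carried Fasn lox/lox without Cre, and from 3 mutant mice, which carried the same Fasn lox/lox alleles together with Olig2-Cre, all on a C57Bl/6 background. For its developmental studies the paper's methods also allow Fasn lox/wt controls. They describe the floxed line as of mixed origin and backcrossed to C57Bl/6. Cre expressed from Olig2 elements acts in the whole OL lineage and is not limited to cells that have begun to myelinate, and because controls carried no Cre, loss of Fasn and presence of the Cre allele cannot be told apart. Both nerves of a mouse made up 1 sample, so n counts mice. A nerve holds OLs and their progenitors beside astrocytes, microglia, vessels and meninges, and in such bulk RNA fewer cells of a type and less RNA per cell cannot be told apart.

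Tetraspanins are small proteins that cross the membrane several times and gather integrins, receptors, proteases and each other into membrane microdomains. Palmitate attached to cysteines next to the membrane helps to hold these assemblies together. Igsf8 (EWI-2) and Ptgfrn (EWI-F, also CD9P-1) bind Cd9 and Cd81 directly, and Prom1 (CD133) binds cholesterol and sits on membrane protrusions. In white matter, Tspan2, Cd9 and Cd81 are proteins of OLs and their myelin, whereas Cd63 resides in late endosomes and lysosomes of most cell types.

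The targeted gene was checked first. Fasn was at 210.3, 169.1, 211.1 and 228.3 FPKM (fragments scaled for transcript length and library size) in control samples 1 to 4, and at 69.3, 50.52 and 48.98 FPKM in mutant samples 1 to 3. The mutant level was 27.5% of control (log2 difference -1.86, SE 0.138, adjusted p = 0.00312 by limma-trend), and the groups did not overlap. The normalized counts gave back between 27459669 and 43462451 reads per sample, and each member was covered by between 1358 and 154459 reads in every sample. Over all 13866 genes tested, 363 (2.62%) passed an adjusted p of 0.05 in limma-trend, 175 of them higher (1.26%) and 188 lower (1.36%) in the mutants. The split depended on the method. It was 135 higher and 221 lower after median-of-ratios scaling, 141 and 281 after quantile normalisation, and 103 and 267 with the deposited normalized counts. It was 162 and 238 in edgeR and 920 and 763 in DESeq2 on the recovered counts, 890 and 269 with the replicate number as a block, and 565 and 344 without mutant 2. The median log2 difference of all tested genes was 0.05.

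In the mutant nerve, Cd63 was higher. Tspan2, Cd81 and Cd9, the most abundant tetraspanins of the nerve, were measured slightly lower without passing the test. All 10 members passed the filter on low values. Only Cd63 passed the adjusted threshold in limma-trend, so that 1 of 10 members was called beside 2.62% of all genes. At an unadjusted p of 0.05, 5 members passed, beside 24.4% of all genes tested. These were Cd63 and Cd151 with higher values (15.9% of all genes) and Prom1, Igsf8 and Tspan15 with lower values (8.5% of all genes). For 4 members no mutant value fell inside or across the control range, beside 21.1% of all genes, with Cd63 and Cd151 entirely above (12.9% of all genes) and Prom1 and Tspan15 entirely below (8.26%). On the recovered counts, edgeR called Cd63 and Prom1, 2 of 10 members beside 2.88% of all genes, and DESeq2 called Cd63, Cd151, Igsf8 and Prom1, 4 of 10 beside 12.1%. The log2 difference was above 0 for 3 members and below 0 for 7, with a median of -0.14, whereas 60.1% of all genes were above 0.

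**Figure D1:**
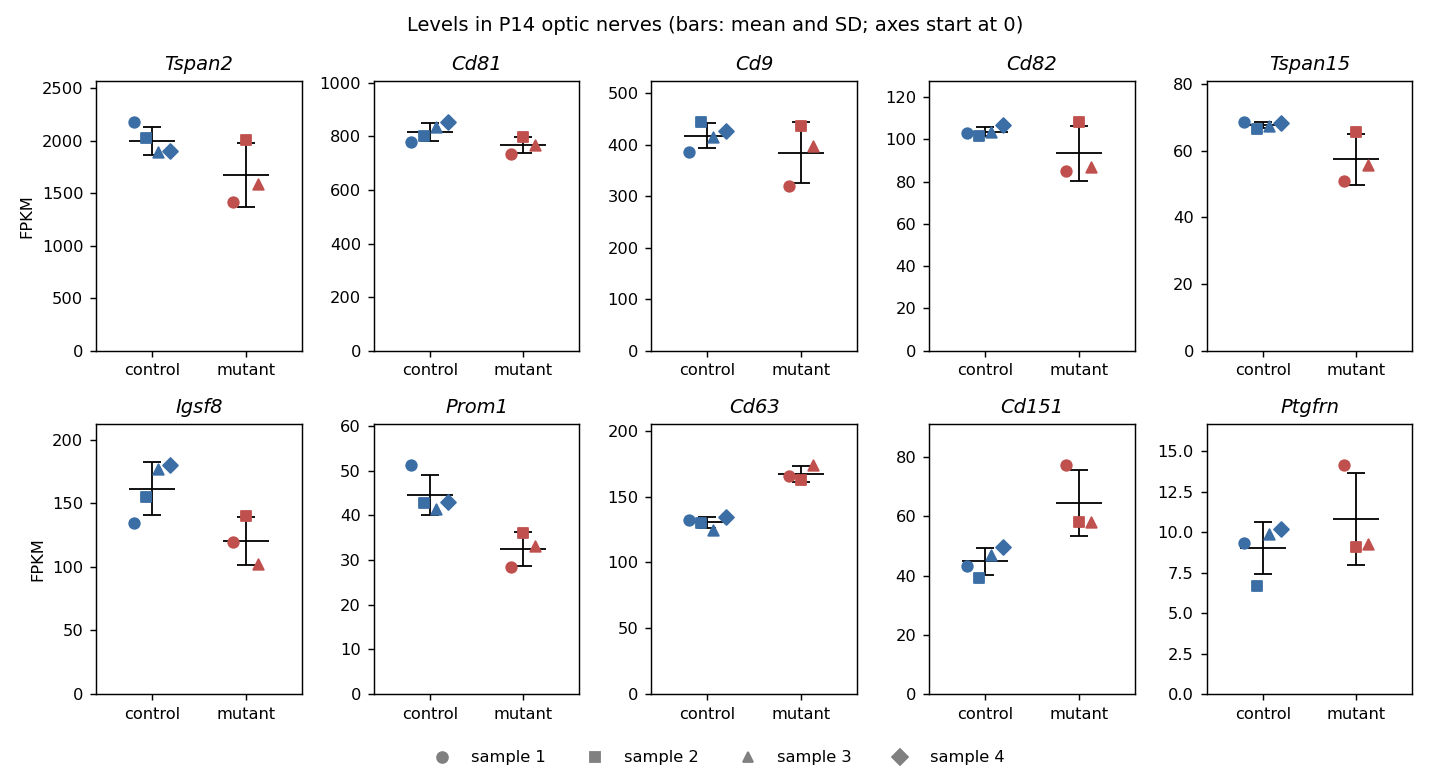
FPKM of each of the 10 members in every sample (y axes, one panel per gene), for 4 control and 3 mutant mice, with each point a mouse and the bar and whiskers the group mean and SD. Cd63 runs from 125.0 to 134.6 FPKM in controls and from 162.6 to 173.9 FPKM in mutants, while for Tspan2 mutant 2 (2011 FPKM) lies among the controls.

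Cd63, the tetraspanin of late endosomes, lysosomes and secreted vesicles, lies at chr10:128908919-128912816 on GRCm38 (+ strand, ENSMUSG00000025351). It was at 132.6, 129.8, 125.0 and 134.6 FPKM in controls and at 165.8, 162.6 and 173.9 FPKM in mutants. All mutant samples lay above all control samples, and the mutants differed little among themselves. The mean rose from 130 ± 4.16 (SD, n = 4) to 167 ± 5.82 (SD, n = 3), a log2 difference of 0.36 (SE 0.0558, adjusted p = 0.0234, limma-trend). The difference ranged from 0.33 to 0.38 when any 1 sample was left out, but its adjusted p rose above 0.05 without control 1 (0.054), control 2 (0.0641), control 3 (0.0973) or mutant 3 (0.091). With the deposited normalized counts in place of FPKM, the difference was 0.28 and the adjusted p 0.0503.

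The genes whose log2 level followed Cd63 most closely over the 7 samples, among 9451 tested genes with a mean of at least 5 FPKM, were Gstm1, Slc37a3 and Agmo. Pearson's r was 0.991 for Gstm1, a glutathione S-transferase, 0.991 for Slc37a3, a member of the sugar-phosphate exchanger family, and 0.987 for Agmo, the enzyme that cleaves ether lipids of the alkylglycerol type. These points share their libraries and the difference between the genotypes, so the values are a description. Gstm1 was at 125.5, 120.5, 119.2 and 127.9 FPKM in controls and at 163.0, 167.3 and 169.7 FPKM in mutants (log2 difference 0.43, adjusted p = 0.0148, limma-trend). Agmo also passed the test (0.44, adjusted p = 0.0374), and Slc37a3 did not (0.15, adjusted p = 0.2, limma-trend).

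Cd151, which binds laminin-binding integrins tightly, lies at chr7:141467362-141471479 (+ strand, ENSMUSG00000025510). It was at 43.38, 39.15, 46.85 and 49.63 FPKM in controls and at 77.24, 57.94 and 58.05 FPKM in mutants. The groups did not overlap, and mutant 1 stood highest. The mutant mean of 64.4 ± 11.1 (SD, n = 3) was 144% of the control mean of 44.8 ± 4.53 (SD, n = 4), the largest ratio among the members above 0, but the log2 difference of 0.51 (SE 0.118) had an adjusted p of 0.0582 in limma-trend. With the replicate number as a block, the difference was 0.56 and the adjusted p 0.0295 (limma-trend), so Cd151 passed beside 8.36% of all genes. The sample labels do not say that the numbers pair mice, and control 4 has no partner. That fit is therefore given as an alternative only. Without mutant 1 the difference was 0.38.

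Prom1, a cholesterol-binding protein of membrane protrusions, lies at chr5:43993620-44102032 (- strand, ENSMUSG00000029086). It was at 51.2, 42.75, 41.42 and 42.94 FPKM in controls and at 28.49, 36.07 and 33.05 FPKM in mutants. Every mutant lay below every control, while control 1 stood apart above the other controls. The mean was 44.6 ± 4.47 (SD, n = 4) in controls and 32.5 ± 3.82 (SD, n = 3) in mutants, or 73.0% of control. The log2 difference of -0.45 (SE 0.0997) had an adjusted p of 0.0534 in limma-trend, and without control 1 it was -0.38 with an adjusted p of 0.0886. Prom1 passed the threshold in edgeR on the recovered counts (adjusted p = 0.0475), in DESeq2 (0.00225) and in limma-trend on the normalized counts (0.0466). An annotated antisense gene, Gm16401, shares 424 exon bases with Prom1. The library kit kept the strand, but whether the counting used it is not given in the sources used here, so the levels of members with such overlaps are uncertain to that extent.

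To show what lies in front of the members with the smallest p-values, the 250 bases before the RefSeq start site of Cd63, Cd151, Igsf8 and Prom1 are given 5′ to 3′ along the gene's strand (RefSeq, GRCm38.p6). Capitals mark the GC box GGGCGG, and in Cd63 the SOX core ACAAAG, which is read there from the other strand.
Cd63 (chr10:128909095-128909344, + strand): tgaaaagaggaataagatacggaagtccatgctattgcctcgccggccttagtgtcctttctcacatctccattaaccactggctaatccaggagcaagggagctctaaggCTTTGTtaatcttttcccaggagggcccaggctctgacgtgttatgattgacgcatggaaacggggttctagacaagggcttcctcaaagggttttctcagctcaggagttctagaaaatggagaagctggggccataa
Cd151 (chr7:141467112-141467361, + strand): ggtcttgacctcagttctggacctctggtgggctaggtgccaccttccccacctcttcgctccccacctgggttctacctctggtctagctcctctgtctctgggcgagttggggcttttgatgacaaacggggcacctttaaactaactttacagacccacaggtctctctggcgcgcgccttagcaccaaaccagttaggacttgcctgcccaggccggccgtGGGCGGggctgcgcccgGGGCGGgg
Igsf8 (chr1:172312117-172312366, + strand): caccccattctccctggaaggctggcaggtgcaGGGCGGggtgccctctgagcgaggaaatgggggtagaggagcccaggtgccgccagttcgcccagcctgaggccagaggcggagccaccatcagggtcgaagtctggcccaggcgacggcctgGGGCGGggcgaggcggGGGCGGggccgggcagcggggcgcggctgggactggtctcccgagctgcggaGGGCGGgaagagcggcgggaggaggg
Prom1 (chr5:44101737-44101986, - strand): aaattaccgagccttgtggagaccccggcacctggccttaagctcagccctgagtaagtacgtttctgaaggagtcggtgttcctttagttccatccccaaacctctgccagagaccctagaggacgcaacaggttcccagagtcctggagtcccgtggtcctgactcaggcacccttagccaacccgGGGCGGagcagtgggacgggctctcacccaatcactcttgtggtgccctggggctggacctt
The G and C content of these windows was 48.8% for Cd63, 62.4% for Cd151, 74.8% for Igsf8 and 59.2% for Prom1. All 10 members were matched in the promoter table, and the 250 bases before each start site were searched on both strands. The GC box was present in 7 of the 10 members (Cd9, Cd81, Cd82, Cd151, Igsf8, Ptgfrn and Prom1) and in 32.7% of all 32851 promoters. Igsf8 held 4 copies, the most of any member, and Cd63, Tspan2 and Tspan15 held none. The SOX core was found in Cd63 alone among the members and in 16.5% of all promoters. The palindromic E-box CACGTG (6.02% of all promoters) and the TATA box TATAAA (12.4%) were found in no member. Such matches describe letters only and were not tested against the RNA levels. For Igsf8 the RefSeq start site lies 50726 bases inside the gene as drawn in the deposited table, and the table gives no level per start site.

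Tspan2, a tetraspanin enriched in OLs, lies at chr3:102734529-102801513 (+ strand, ENSMUSG00000027858) and was the 21st most abundant of all tested genes by control FPKM. It was at 2176, 2027, 1891 and 1900 FPKM in controls and at 1414, 2011 and 1589 FPKM in mutants. Mutants 1 and 3 lay below all controls and mutant 2 lay among them. The mutant mean of 1670 ± 307 (SD, n = 3) was 83.6% of the control mean of 2000 ± 134 (SD, n = 4), and the log2 difference of -0.27 (SE 0.127) did not pass the test (adjusted p = 0.227, limma-trend).

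Cd81 and Cd9, the tetraspanins that bind Igsf8 and Ptgfrn, differed least among the members. Cd81 (chr7:143052739-143067934, + strand, ENSMUSG00000037706) was at 778.0, 801.6, 836.4 and 852.8 FPKM in controls and at 735.7, 795.9 and 766.7 FPKM in mutants (log2 difference -0.09, SE 0.0699, adjusted p = 0.442, limma-trend). Cd9 (chr6:125460266-125494791, - strand, ENSMUSG00000030342) was at 386.1, 443.9, 414.5 and 425.8 FPKM in controls and at 320.6, 437.3 and 396.9 FPKM in mutants (log2 difference -0.13, SE 0.106, adjusted p = 0.491, limma-trend). For both genes the groups overlapped, with mutant 2 inside the control range and mutant 1 below it. Without mutant 1 the value of Cd9 lay near 0, so its sign rests on that sample.

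Cd82, known in tumours as a suppressor of metastasis, lies at chr2:93419111-93463140 (- strand, ENSMUSG00000027215). It was at 103.1, 101.6, 103.3 and 106.7 FPKM in controls and at 85.07, 108.1 and 86.82 FPKM in mutants. Mutants 1 and 3 were below the narrow range of the controls and mutant 2 was above it (log2 difference -0.16, SE 0.0851, adjusted p = 0.284, limma-trend). Tspan15, which escorts the protease Adam10 to the cell surface, lies at chr10:62185396-62231218 (- strand, ENSMUSG00000037031). It was at 68.6, 66.64, 67.55 and 68.43 FPKM in controls and at 50.8, 65.72 and 55.84 FPKM in mutants. The controls lay close together, and all mutants lay below them, mutant 2 only just. The mutant level was 84.7% of control (log2 difference -0.25, SE 0.0834, adjusted p = 0.127, limma-trend).

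Igsf8, the shorter of the EWI proteins, lies at chr1:172261641-172319841 (+ strand, ENSMUSG00000038034). It was at 134.6, 155.3, 177.1 and 180.0 FPKM in controls and at 119.5, 140.1 and 102.0 FPKM in mutants. The groups overlapped because mutant 2 exceeded control 1. The mean was 162 ± 21.2 (SD, n = 4) in controls and 121 ± 19.1 (SD, n = 3) in mutants, or 74.5% of control (log2 difference -0.43, SE 0.129, adjusted p = 0.101, limma-trend).

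Ptgfrn, the longer EWI protein, lies at chr3:101040232-101110278 (- strand, ENSMUSG00000027864) and was the least abundant member. It was at 9.36, 6.688, 9.879 and 10.22 FPKM in controls and at 14.14, 9.118 and 9.255 FPKM in mutants. Mutant 1 alone exceeded the controls (log2 difference 0.24, SE 0.183, adjusted p = 0.453, limma-trend). Because the EWI proteins form complexes with Cd9 and Cd81, the log2 ratio of each EWI gene to each of these genes was also compared within samples, for 4 ratios. The ratio of Igsf8 to Cd81 was -2.34 ± 0.137 (SD, n = 4) in controls and -2.67 ± 0.207 (SD, n = 3) in mutants, a difference of -0.33 (exact two-sided permutation p = 0.114, adjusted p = 0.343 over the 4 ratios). The ratio of Igsf8 to Cd9 differed by -0.30 (exact permutation p = 0.171, adjusted 0.343), that of Ptgfrn to Cd9 by 0.37 (exact p = 0.571, adjusted 0.571) and that of Ptgfrn to Cd81 by 0.33 (exact p = 0.4, adjusted 0.533). The groups overlapped for all 4 ratios. Single samples carried much of these differences. Ptgfrn to Cd9 ran from 0.04 without mutant 1 to 0.57 without mutant 2, and was 0.21 without control 2. Ptgfrn to Cd81 was 0.10 without mutant 1 and 0.21 without control 2. Without mutant 3, Igsf8 to Cd9 was -0.16 and Igsf8 to Cd81 was -0.22. With 4 samples against 3, this test can give no two-sided p below 0.0571.

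**Figure D2:**
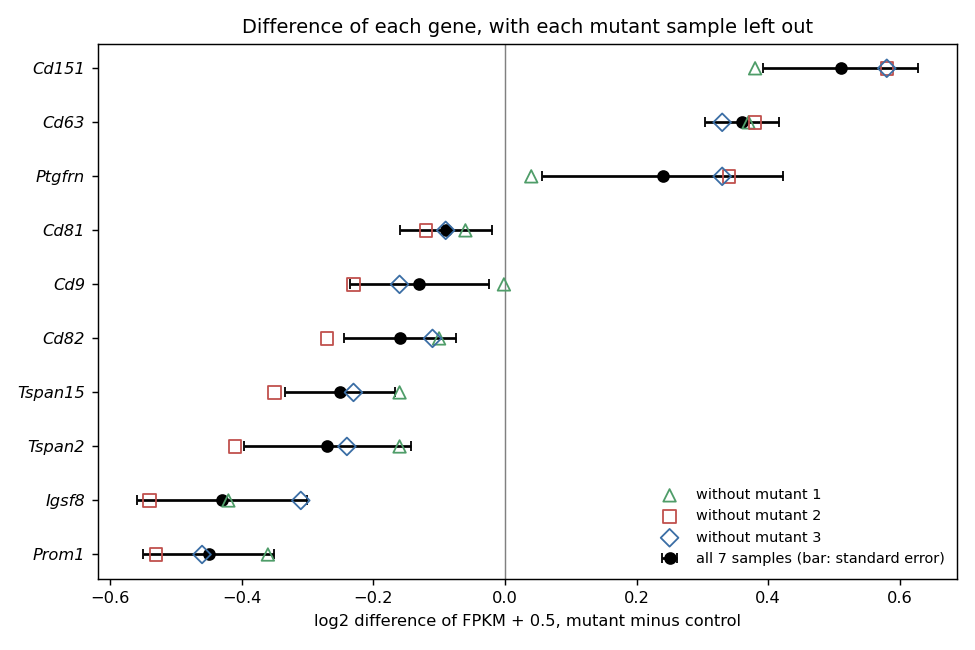
Log2 difference between mutant and control (x axis, log2(FPKM + 0.5) scale) of the 10 members (y axis), as filled points with bars of 1 SE from limma-trend over all 7 samples, and open symbols for the fits without mutant 1, 2 or 3. Cd63 (0.36) alone passed the adjusted threshold, Cd151 (0.51) and Prom1 (-0.45) lay farthest from 0 on each side, and Cd81 (-0.09) lay nearest to 0. Without mutant 2 all 7 members below 0 lay farther from it.

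The samples of the mutant group did not deviate alike. Among the 7 members with a difference below 0, mutant 2 was the highest mutant for all 7 and lay within or above the control range for 5. Mutant 1 was below all controls for all 7, and mutant 3 for 6. Without mutant 2, 7 members passed the adjusted threshold in limma-trend, namely Cd63 and Cd151 with higher and Prom1, Tspan15, Cd82, Igsf8 and Tspan2 with lower levels, beside 6.58% of all genes tested in that fit. Without control 1, 2 or 3 or mutant 3, no member passed. Few genes of any kind passed in those fits, namely 62 of 13801, 15 of 13810, 6 of 13809 and 6 of 13767 genes tested. Fasn itself was at 50.52 FPKM in mutant 2, close to its 48.98 FPKM in mutant 3.

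On the scale of FPKM, which is per length and allows genes to be compared, the controls ran in the order Tspan2, Cd81, Cd9, Igsf8, Cd63, Cd82, Tspan15, Cd151, Prom1 and Ptgfrn. Tspan2 exceeded Cd81 by 2.45 times and Cd81 exceeded Cd9 by 1.96 times. The control ranges of Igsf8 and Cd63 overlapped, as did those of Cd151 and Prom1, while all other neighbours were separate. Within samples, Igsf8 lay above Cd63 in all 4 controls, whereas Cd151 lay above Prom1 in 2 of 4. In mutants the order was Tspan2, Cd81, Cd9, Cd63, Igsf8, Cd82, Cd151, Tspan15, Prom1 and Ptgfrn. There Cd63 lay above Igsf8 in all 3 samples with separate ranges, whereas Igsf8 and Cd82 overlapped, as did Cd151 and Tspan15. The order of neighbours was not tested between the groups.

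Within the tetraspanin family, 31 genes were in the table and 27 were tested. Tspan2, Cd81 and Cd9 held ranks 1 to 3 of the family in controls and together made up 74.7% ± 0.888 (SD, n = 4) of its summed FPKM, against 69.8% ± 3.41 (SD, n = 3) in mutants. Tspan2 alone made up 46.1% ± 2.31 (SD, n = 4) of the family in controls and 41.2% ± 3.8 (SD, n = 3) in mutants. Its share was 49.2%, 46.7%, 44.4% and 44.2% in the controls and 38.1%, 45.4% and 40.2% in the mutants, so mutant 2 lay inside the control range. The summed level of the family was 4330 ± 72.5 FPKM (SD, n = 4) in controls and 4030 ± 361 FPKM (SD, n = 3) in mutants.

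**Figure D3:**
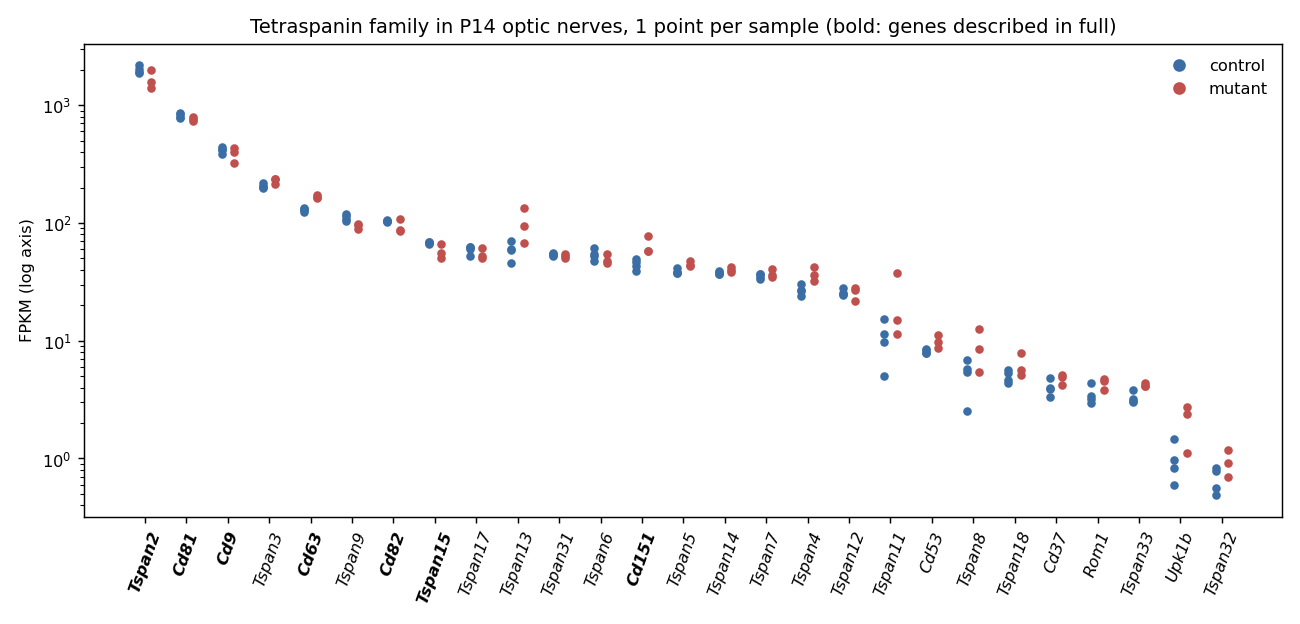
FPKM (log y axis) of the 27 tested tetraspanin genes in each of 4 control and 3 mutant mice, ordered by control mean, with each point a mouse and the 7 members in bold. Tspan2, Cd81 and Cd9 lead the family in both groups. In the mutants Cd63 and Cd151 lie entirely above the controls and Tspan15 entirely below. Of the other 20 tested, 4 lie entirely above and 1 entirely below, beside 12.9% and 8.26% of all genes.

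Of the other 24 tetraspanins, 20 were tested and none passed the adjusted threshold in limma-trend. At an unadjusted p of 0.05, 7 had higher and 1 had lower values, beside 15.9% and 8.5% of all genes, 15 lay above 0 and 5 below, and the median log2 difference was 0.25, beside 0.05 for all genes. In edgeR 1 of them passed (Tspan9), beside 2.88% of all genes, and in DESeq2 4 did (Tspan13, Tspan4 and Upk1b with higher and Tspan9 with lower levels), beside 12.1%. With the replicate block 4 passed, all higher (Tspan13, Tspan4, Tspan8 and Upk1b), beside 8.36%. The next genes are named after their values were seen. Tspan13 was at 59.13, 45.56, 69.7 and 59.67 FPKM in controls and at 135.3, 68.22 and 94.27 FPKM in mutants, with mutant 1 far above the rest and mutant 2 inside the control range (log2 difference 0.72, SE 0.215, adjusted p = 0.0993, limma-trend). Tspan9 was at 114.9, 103.6, 118.9 and 107.2 FPKM in controls and at 97.98, 89.04 and 95.55 FPKM in mutants, which lay below all controls (log2 difference -0.24, SE 0.0677, adjusted p = 0.091). Prph2, the tetraspanin of photoreceptor discs, was listed at 0 in every sample.

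The partners and modifiers of the members were then read from lists of known function. The counts that follow are to be read beside the shares of all genes tested. At an unadjusted p of 0.05 in limma-trend, 15.9% of all genes were higher and 8.5% lower. At the adjusted threshold, 2.62% passed in limma-trend, 2.88% in edgeR, 12.1% in DESeq2 and 8.36% with the replicate block. Adam10, the protease that cleaves Notch and many other surface proteins and is escorted by tetraspanins such as Tspan15, was at 54.45, 43.64, 47.53 and 48.97 FPKM in controls and at 56.62, 55.19 and 56.79 FPKM in mutants. The groups did not overlap, in the opposite direction to Tspan15, but the log2 difference of 0.21 (SE 0.0761) did not pass the test (adjusted p = 0.141, limma-trend). Of the 6 genes of Adam10 and the other tetraspanins that escort it, 5 were tested and none passed in limma-trend, edgeR or DESeq2, 3 had higher values at an unadjusted p of 0.05, and the median was 0.21. The laminin-binding integrin subunits, to which Cd151 binds, were all tested and none of the 5 passed in limma-trend, with 2 higher and 1 lower at an unadjusted p of 0.05 and a median of 0.05. Itgb4, named after its values were seen, was at 16.04, 16.41, 14.85 and 13.38 FPKM in controls and at 11.69, 11.62 and 12.04 FPKM in mutants (log2 difference -0.35, SE 0.083, adjusted p = 0.062) and passed in edgeR, in DESeq2 and with the replicate block. Of the 7 vesicle sorting genes, none passed in limma-trend or edgeR, 2 had higher values at an unadjusted p of 0.05, and 1 (Sdcbp, the syntenin that couples Cd63 to vesicle budding) passed in DESeq2. Of the 3 EWI and prominin relatives 1 was tested (Igsf3, log2 difference 0.30, adjusted p = 0.182), with an unadjusted p under 0.05, and it did not pass in limma-trend, edgeR or DESeq2.

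The enzymes that add or remove palmitate held the calls among these lists. Of 27 palmitoyl transferases and thioesterases tested, 2 fell and none rose in limma-trend, beside 1.36% of all genes called lower, and the list's median was -0.05. With the replicate block the same 2 genes fell and Lypla1, a thioesterase, rose, beside 8.36% of all genes called. In DESeq2 Zdhhc7 fell besides these 2 and Lypla1 rose, beside 12.1% of all genes. At an unadjusted p of 0.05 in limma-trend, 1 was higher and 6 were lower, beside 15.9% and 8.5% of all genes. Zdhhc9 fell from 179.9, 176.0, 176.6 and 172.2 FPKM in controls to 127.1, 149.8 and 131.8 FPKM in mutants (log2 difference -0.37, SE 0.0674, adjusted p = 0.0335, limma-trend). Zdhhc14 fell from 12.8, 13.24, 13.69 and 14.34 FPKM to 9.096, 10.53 and 9.914 FPKM (log2 difference -0.44, SE 0.0776, adjusted p = 0.0326, limma-trend). Both are palmitoyl transferases, their groups did not overlap, and mutant 2 was the highest mutant in each. When any 1 sample was left out, the differences ran from -0.44 to -0.33 for Zdhhc9 and from -0.49 to -0.39 for Zdhhc14, and both passed in no such fit but the one without mutant 2. Zdhhc2, known to palmitoylate Cd9 and Cd151 and named after its values were seen, was at 20.7 ± 1.53 FPKM (SD, n = 4) in controls and 16.7 ± 2.96 FPKM (SD, n = 3) in mutants (log2 difference -0.31, SE 0.119, adjusted p = 0.156).

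Some marker genes of OLs were called lower and some of astrocytes higher in the mutants, beside 1.36% of all genes called lower and 1.26% called higher in limma-trend. In each OL list 1 marker lay above 0 without passing, Ptprz1 for progenitors, Bmp4 for newly formed and Hapln2 for myelinating and mature OLs. With the replicate block 8.36% of all 13866 genes passed, 890 of them higher and 269 lower. At an unadjusted p of 0.05 in limma-trend, 15.9% of all genes were higher. In edgeR 2.88% of all genes passed and in DESeq2 12.1%, and counts below from these settings are to be read beside those shares. The 11 markers of myelinating and mature OLs summed to between 56900 and 64600 FPKM in controls and to 41400, 53100 and 43900 FPKM in mutants 1 to 3, with 2 of 11 lower at the adjusted threshold (Cnp and Mag) and a median log2 difference of -0.23. With the replicate block, and with the deposited normalized counts, none of these 11 passed, and in edgeR 1 did (Mag). The 7 markers of newly formed OLs summed to 908 to 991 FPKM in controls and 659 to 752 FPKM in mutants (2 of 7 lower, and 4 of 7 with the block, median -0.36), and the 6 markers of OL progenitors to 150 to 175 FPKM and 135 to 160 FPKM (1 of 6 lower, median -0.29). Mutant 2 held the highest sum of the mutants for myelinating and mature OLs and for newly formed OLs (752 FPKM), as it held the highest level of each member below 0. The 8 astrocyte markers summed to 3010 to 3450 FPKM in controls and 3970 to 4750 FPKM in mutants (4 of 8 higher, and 6 of 8 with the block, median 0.59). The 7 markers of meningeal fibroblasts summed to 1900 to 2670 FPKM in controls and to 4820, 2530 and 2900 FPKM in mutants (0 of 7 past the adjusted threshold, 4 higher at an unadjusted p of 0.05, median 0.57), and mutant 1, which was highest for Cd151, Ptgfrn and Tspan13, was also highest there. With the replicate block 5 of these 7 were higher (Col1a1, Col1a2, Col3a1, Dcn and Slc6a13), and in DESeq2 3 were. Microglia (8 markers, 293 to 355 FPKM in controls and 332 to 374 FPKM in mutants), endothelial cells (8 markers, 159 to 187 and 194 to 219), mural cells (6 markers, 273 to 369 and 363 to 527) and Schwann cells (4 markers, 16.8 to 20.4 and 14.6 to 21.0) had no marker past the adjusted threshold in limma-trend, while with the replicate block 1 microglial, 2 endothelial and 2 mural markers were higher. The 7 photoreceptor markers summed to between 1.08 and 1.54 FPKM in controls and between 1.15 and 1.31 FPKM in mutants. No marker of any list was at 0 in all samples. The part of these shifts in the members' differences was not tested.

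**Figure D4:**
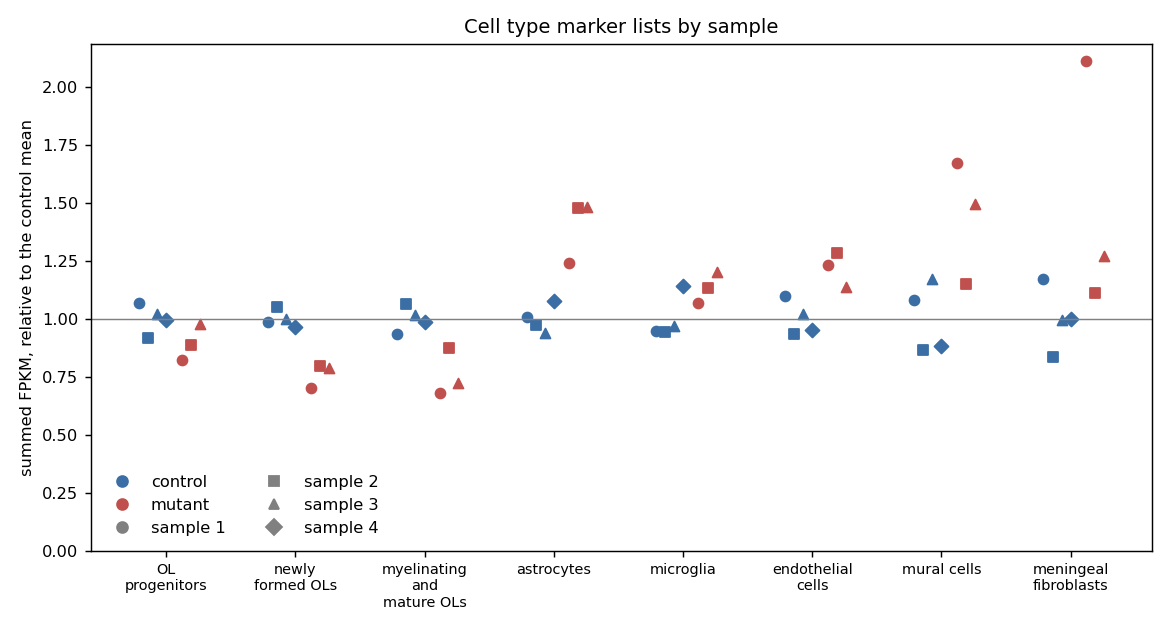
Summed FPKM of 8 cell type marker lists in each sample, divided by the control mean of the list (y axis, 1 is the control mean), for 4 control and 3 mutant mice, with each point a mouse. Sums of newly formed and of myelinating and mature OL markers lie below all controls in the mutants, mutant 2 being nearest to the controls, and astrocyte sums lie above all controls.

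Set against the marker sums, a description chosen after the data had been seen and given with no test, the members fell into different patterns. Per 1000 FPKM of the markers of myelinating and mature OLs, Igsf8 was at 2.66 ± 0.323 (SD, n = 4) in controls and 2.62 ± 0.282 (SD, n = 3) in mutants, and Prom1 at 0.737 ± 0.111 and 0.707 ± 0.04. Tspan2 was at 33.0 ± 3.54 and 36.1 ± 1.88 on this scale. For these 3 genes the groups overlapped. Cd81 was at 13.5 ± 0.764 in controls and 16.7 ± 1.52 in mutants, and Cd9 at 6.87 ± 0.164 and 8.34 ± 0.656, with all mutants above all controls. Cd82, Tspan15, Cd63, Cd151 and Ptgfrn also had all mutants above all controls per OL marker sum. That sum was itself lower in every mutant than in every control, so an unchanged gene would tend to rise on this scale. The share of all genes that rise likewise was not computed. Per 1000 FPKM of the newly formed OL markers, Prom1 was at 47.4 ± 5.48 (SD, n = 4) and 45.2 ± 2.45 (SD, n = 3), with overlap. Per 1000 FPKM of the astrocyte markers, Cd63 was at 40.8 ± 1.19 in controls and 37.6 ± 3.8 in mutants, and the groups overlapped, as they did for Cd151. Cd81 was at 256 ± 16.0 and 172 ± 12.3 per astrocyte sum, with all mutants below all controls. The astrocyte sum was itself higher in every mutant than in every control. Per 1000 FPKM of the meningeal fibroblast markers, Cd151 was at 19.8 ± 2.44 and 19.7 ± 3.47 and Cd63 at 58.1 ± 7.86 and 52.9 ± 16.2, both with overlap. Tspan15 per newly formed OL sum (72.1 ± 3.55 and 79.9 ± 6.56) overlapped as well. Since Cd63 and Cd151 overlapped for more than one list, these ratios assign no gene to a cell type.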

How the data were processed

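RNA of P14 optic nerves (4 control, 3 mutant mice) was sequenced in single end mode from stranded poly-A libraries. Per the paper's methods and the submitters' processing notes, the authors aligned reads to GRCm38 with STAR 2.5.1b and estimated counts with RSEM 1.2.22. The authors deposited FPKM values, scaled for gene length and library size, and normalized counts, a signal per gene made by dividing the estimated count by a size factor per sample whose method is not given in the sources used here. The authors' own log2 ratio, p-value and FDR columns were not used.

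FPKM values were tested with limma-trend (limma 3.58.1) on log2(FPKM + 0.5), for the 13866 genes with at least 0.5 FPKM in at least 3 samples, by a model of genotype alone, and p-values were adjusted over all of them after Benjamini-Hochberg (threshold 0.05). SE is that of limma after moderation. Differences of genes near the filter are understated on this scale. Estimated counts were recovered from the steps of low normalized counts. Of the low values, 92.6% to 100.0% fell on steps of a hundredth of a read, and of values of 0.5 to 10 reads, 75.6% to 80.6% lay within 0.05 of a whole read. Rounded, they entered edgeR 4.0.16 (quasi-likelihood) and DESeq2 1.42.0 as alternatives. SDs cover the spread between mice. Deviations from the group means correlated at 0.168 to 0.409 over 3 pairs of the same number. Over 9 pairs of different number they correlated at -0.353 to 0.205. The ranges overlapped through control 4 with mutant 1 (0.205) alone. The sample labels do not say that the numbers pair mice. The replicate number was used as a block in an added model, as an alternative to the model of genotype alone. Replicates of a group differed by more than sampling noise. Scripts were tested on simulated data.

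All 10 members are described, as are, from the partner lists, Adam10 and every gene past the threshold, and, for each member past it, the 3 genes most like it. The members and lists were chosen with earlier results of these data known. Overlapping genes were read from GENCODE M21 and promoters from RefSeq. Some overlaps are not reported here.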

Additional observations from a re-analysis of the deposited data

Results flagged for a closer look

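Of 18 sets of 4 control values examined, 3 held a sample far from the others, and chance alone marks about 1 in 20 sets. The sets are not independent, because both Ptgfrn ratios share the low Ptgfrn value of control 2. The 3 of 18 therefore cannot be compared with that rate directly. For Prom1, control 1 (51.2 FPKM) lay apart from the other controls (41.42 to 42.94 FPKM), with a gap of 0.845 of the group's range, above Dixon's critical value for 4 samples. For Ptgfrn, control 2 (6.688 FPKM) was low, and its log2 ratios stood apart, at -5.95 for Ptgfrn to Cd9 (gap 0.957 of the range) and at -6.80 for Ptgfrn to Cd81 (gap 0.939). The cause of these values was not tested.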

How the results depend on the processing

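The difference of Cd63, the member called, stayed above 0 under all 18 alternatives. The number of all genes past the threshold moved from 363 to 95 without the filter on low values, 57 without the mean-variance trend, 1683 in DESeq2 and 1159 with the replicate block, and the members called moved from 1 to 0 without the trend, 2 in edgeR, 4 in DESeq2 and 2 with the block. The other tetraspanins and partner lists held 2 called genes, against 0 without the filter or the trend, 4 with normalized counts, 4 in edgeR, 10 in DESeq2 and 8 with the block. Leaving out 1 sample gave 6 to 909 genes (62, 15, 6 and 119 without controls 1 to 4, and 191, 909 and 6 without mutants 1 to 3), 0 to 7 members and 0 to 7 genes of the lists. The block changed no member's call but that of Cd151. Fewer samples lower the power of such fits, and beyond that the cause was not tested. Whether more mice or more reads would narrow the errors most was not tested.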
